A study of Mus musculus with 11 samples.

Results

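Genes for claudins and for other proteins of the tight junction were followed through the MamBo mammary carcinoma lines of the mouse. They were taken by gene symbol as Cldn1, Cldn3, Cldn4, Cldn7, Cldn10, Ocln, Tjp1, F11r, Marveld2 and Lsr. All 10 had a row among the 21846 genes of the deposited count table. Their symbols, and no cutoff on a measured value, put them on the list, but earlier results of these data were known when it was chosen.

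RNA of 11 cultures was sequenced, with 1 library for each culture, to ask which genes go with the loss of HER2. The lines stem from mammary tumors of virgin female FVBhuHER2 mice, which carry human HER2 as a transgene. MamBo89HER2stable was derived from tumor A, MamBo43HER2labile from tumor B, and MamBo38HER2loss from a tumor that MamBo43 cells formed after injection into a mouse. All cultures were kept in the same medium, and treated cultures received trastuzumab, an antibody against HER2, at 30 µg/ml. The 4 MamBo89 libraries, HER2-positive, were an untreated library labelled AG3, taken as the HER2-positive clone that the methods list although its label does not call it a clone, the untreated parental line, a culture with 30 days of trastuzumab followed by 30 days off it (withdrawal), and a culture given it for 60 days. MamBo43 had 1 untreated library, which was HER2-positive. The 2 treated MamBo43 libraries (MamBo43 TRT), 1 from each of the same schedules, had lost HER2. MamBo38, HER2-negative, had 4 libraries, of which 2 were untreated, 1 was a withdrawal culture and 1 a 60-day culture. Cultures of 1 line are not separate tumors or animals, so every p-value below measures the spread between cultures. The counts list mouse genes only, so that the human transgene itself was not measured.

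Tight junctions close the space between neighbouring epithelial cells and, in the mammary gland, keep milk in the ducts. Claudins span the membrane and form the strands of the junction, some as barriers and some as ion channels. Occludin (Ocln) and tricellulin (Marveld2) belong to a second family of membrane proteins, and Lsr (angulin) brings tricellulin to the points where 3 cells meet. F11r (junctional adhesion molecule A) is an adhesion protein of the immunoglobulin family, and Tjp1 (ZO-1) is the scaffold that ties the membrane proteins to actin. Low levels of Cldn3, Cldn4 and Cldn7 mark a class of breast tumors named claudin-low, and the genes of many junction proteins are known targets of repressors of the Snail and Zeb families, which bind DNA letters called the E-box.

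Total counts ran from 17040454 to 27127662 per library. Values below are CPM (counts scaled to one common library size) over sizes scaled by the TMM method of edgeR. A count of 3, taken as the detection floor, was worth 0.113 to 0.179 CPM, and such floors and the intervals given below cover counting error only. Among 13 pairs of libraries within a group, counts differed by 8.18 to 189 times what sampling noise allows (chi-square per degree of freedom), so none looked like a library sequenced again. The summed level of 5 epithelial markers (Krt8, Krt18, Krt19, Epcam and Cdh1) was 2280 to 3710 CPM in MamBo89, 3150 CPM in MamBo43, 276 to 1750 CPM in MamBo43 TRT and 1.25 to 2.46 CPM in MamBo38. The markers of a mammary epithelial cell were thus nearly absent from MamBo38, and Krt19 was at 0 in every library outside MamBo89. Over 6 mesenchymal markers the sums were 205 to 2350, 854, 41400 to 47400 and 22000 to 31100 CPM in the same order. Fn1 made up most of each sum, with a mean of 36950 CPM in MamBo43 TRT and 22440 CPM in MamBo38. Vim alone ran the other way between these groups, with means of 535 and 2581 CPM. Leukocyte markers (5 genes) summed to 7.08 to 16.9 CPM in MamBo89, 1.06 in MamBo43, 4.02 to 4.59 in MamBo43 TRT and 27 to 50.1 in MamBo38. Nearly all of each sum was Cd68, which was at 26.8 to 49.9 CPM in MamBo38. Cd3e was at 0 throughout, and Ptprc was at 0 outside MamBo38 and did not exceed 1 count there. Endothelial markers stayed at or under 0.893 CPM and adipocyte markers at or under 0.113 CPM. The part of other cell types in the results below was not tested. In a bulk culture, fewer epithelial cells and less RNA of these genes per cell cannot be told apart.

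The promoters of the members are shown because most of the membrane proteins followed a single pattern across the lines. RefSeq (GRCm38.p6) gave 14 promoters for all 10 genes, each running from 250 bases before to 50 bases after a start site. The E-box CACCTG, searched on both strands (CAGGTG on the other), stood in 9 of the 14 promoters, which belong to 7 of the 10 genes (Cldn3, Cldn4, Cldn7, F11r, Lsr, Marveld2 and Ocln). It stood in 6640 of all 32851 RefSeq promoters of this length (20.2%). The 2 promoters of Ocln overlap, as do the 2 of Marveld2, and each pair shares a match, so the 9 promoters count some sites more than once. None of the promoters of Cldn1, Cldn10 and Tjp1 held the E-box. Of these, Cldn10 had the largest fall of the members from MamBo43 to MamBo43 TRT. The letters AACCNGTT, a motif of the grainyhead-like factors, were in 0 of the 14 and in 2.09% of all promoters, so that no match of one motif overlapped the other. These matches describe the letters of the window and are not evidence of binding. The 6 promoters printed here are 5 with the E-box, for Cldn3 (chr5:134985964-134986263, plus strand), Cldn4 (chr5:134946885-134947184, minus strand), the second promoter of Cldn7 (chr11:69965171-69965470, plus strand), the second promoter of Ocln (chr13:100552449-100552748, minus strand) and Lsr (chr7:30973420-30973719, minus strand), and 1 without it, for Cldn1 (chr16:26371790-26372089, minus strand), the member that ran opposite to them. Each is written 5′ to 3′ on the strand of the gene, with the E-box in capitals.
Cldn3: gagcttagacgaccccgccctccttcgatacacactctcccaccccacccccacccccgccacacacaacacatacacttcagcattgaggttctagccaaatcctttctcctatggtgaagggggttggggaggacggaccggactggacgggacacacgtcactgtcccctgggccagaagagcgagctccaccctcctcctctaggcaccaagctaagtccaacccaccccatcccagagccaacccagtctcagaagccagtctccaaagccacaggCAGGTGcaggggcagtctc
Cldn4: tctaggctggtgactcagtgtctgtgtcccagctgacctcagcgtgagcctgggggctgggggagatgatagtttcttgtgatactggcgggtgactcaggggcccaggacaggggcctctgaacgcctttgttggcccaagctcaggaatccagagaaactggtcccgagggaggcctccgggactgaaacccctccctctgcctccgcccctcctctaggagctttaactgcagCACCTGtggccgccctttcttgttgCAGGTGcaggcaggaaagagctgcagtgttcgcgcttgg
Cldn7: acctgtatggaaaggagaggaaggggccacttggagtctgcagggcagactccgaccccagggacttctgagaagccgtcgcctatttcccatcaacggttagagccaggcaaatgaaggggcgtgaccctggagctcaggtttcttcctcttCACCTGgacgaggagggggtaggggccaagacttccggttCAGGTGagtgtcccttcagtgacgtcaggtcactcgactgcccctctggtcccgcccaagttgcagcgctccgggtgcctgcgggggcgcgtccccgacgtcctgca
Ocln: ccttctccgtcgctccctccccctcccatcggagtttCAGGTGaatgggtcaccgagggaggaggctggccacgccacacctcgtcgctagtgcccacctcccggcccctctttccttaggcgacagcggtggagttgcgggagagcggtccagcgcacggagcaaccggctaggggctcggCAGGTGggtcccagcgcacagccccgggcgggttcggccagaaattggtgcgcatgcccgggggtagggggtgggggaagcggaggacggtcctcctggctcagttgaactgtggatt
Lsr: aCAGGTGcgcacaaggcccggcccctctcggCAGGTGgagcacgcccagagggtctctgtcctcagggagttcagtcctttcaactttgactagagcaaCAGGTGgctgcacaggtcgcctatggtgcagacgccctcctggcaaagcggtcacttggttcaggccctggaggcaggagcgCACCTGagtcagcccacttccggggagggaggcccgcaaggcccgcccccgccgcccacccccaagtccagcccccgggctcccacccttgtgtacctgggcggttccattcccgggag
Cldn1: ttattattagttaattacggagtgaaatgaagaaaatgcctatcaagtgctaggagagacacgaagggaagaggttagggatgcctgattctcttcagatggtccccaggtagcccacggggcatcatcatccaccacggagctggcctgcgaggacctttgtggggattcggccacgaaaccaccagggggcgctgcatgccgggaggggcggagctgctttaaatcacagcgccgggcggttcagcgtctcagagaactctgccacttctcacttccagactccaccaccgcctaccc
The E-box of Cldn3 lay at bases 32 to 37 after the start. Those of Cldn4 flanked it, at -14 to -9 and at 12 to 17. Lsr held 4 matches between -249 and -64, more than any other member promoter. Cldn3 and Cldn4 lie close together on chromosome 5, and Ocln and Marveld2 on chromosome 13.

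Between HER2-negative (n = 6) and HER2-positive (n = 5) libraries, most members fell and Cldn1 rose. Of the 9 members with enough counts for a test, 6 were lower (Cldn3, Cldn4, Ocln, F11r, Marveld2 and Lsr) and 1 was higher (Cldn1) by edgeR's quasi-likelihood test, with a call resting on a p below 0.1 after Benjamini-Hochberg adjustment and on a log2 fold change of 1 or more in size. Among the 12364 genes tested, 17% were called lower and 15.8% higher. The median log2 fold change was -3.97 over the 9 members and -0.04 over all genes tested. Cldn7 and Tjp1 were not called, and Cldn10 had too few libraries above the count minimum. The HER2-positive libraries of MamBo89 all came from tumor A and every other library from tumor B. With the tumor as a covariate, which leaves MamBo43 as the HER2-positive library of tumor B, Cldn3 (adjusted p = 0.141), Cldn4 (adjusted p = 0.112) and Lsr (adjusted p = 0.122) were no longer called and Cldn7 was (adjusted p = 0.0894).

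**Figure D1:**
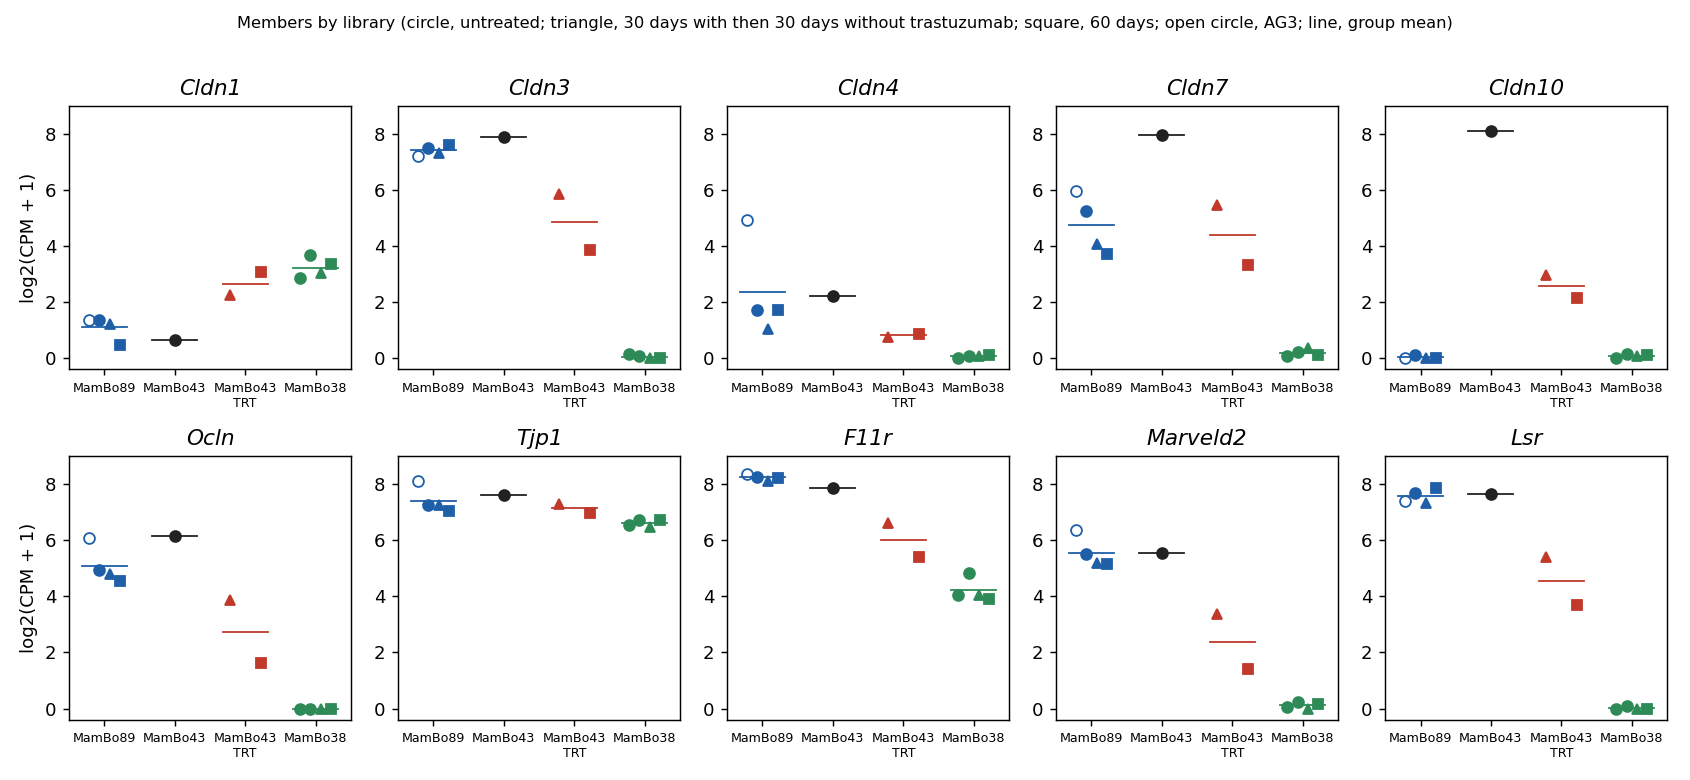
Level of each member in each of the 11 libraries as log2(CPM + 1), by group (MamBo89, n = 4; MamBo43, n = 1; MamBo43 TRT, n = 2; MamBo38, n = 4), with the treatment schedule as the shape of the point and the group mean as a line. Cldn3 and Lsr stood high in MamBo89 and MamBo43 and at 0 to 2 counts in MamBo38, with MamBo43 TRT between, whereas Cldn1 ran the other way and Cldn10 was high in MamBo43.

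Cldn3 (ENSMUSG00000070473, chr5:134986214-134987472, plus strand), a sealing claudin of simple epithelia, was at 149 (AG3), 179 (parental), 159 (withdrawal) and 194 CPM (60 days) in MamBo89 and at 235 CPM in MamBo43. It was at 56.3 CPM in the withdrawal library and 13.6 CPM in the 60-day library of MamBo43 TRT, and at 0.0964, 0.0558, 0 and 0 CPM in MamBo38. The HER2-negative libraries all lay below the HER2-positive ones, and MamBo38 held 3 counts of Cldn3 in its 4 libraries together. The fold of MamBo89 over MamBo38 rested on those 3 counts and was 4654 (95% exact Poisson interval 1592 to 22566). By HER2 status the log2 fold change was -3.97 (SE 1.56, edgeR adjusted p = 0.0518), where SE is the standard error, taken as the fold change over the square root of the F statistic. From MamBo43 to MamBo43 TRT it was -2.75 (SE 0.58, edgeR adjusted p = 0.00615). Without the withdrawal library of MamBo43 TRT these values were -6.01 and -4.13 (adjusted p = 0.00797 and 0.000274).

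Cldn7 (ENSMUSG00000018569, chr11:69964779-69967885, plus strand), a claudin of basolateral membranes and junctions, differed among the HER2-positive libraries themselves. It was at 61.5 (AG3), 37.2 (parental), 15.8 (withdrawal) and 12.2 CPM (60 days) in MamBo89 and at 247 CPM in MamBo43. It was at 42.8 and 9.10 CPM in the withdrawal and 60-day libraries of MamBo43 TRT, and at 0.0482 to 0.298 CPM in MamBo38. The withdrawal library of MamBo43 TRT thus lay above 3 of the 4 MamBo89 libraries, and the groups by HER2 status overlapped (log2 fold change -3.09, SE 1.54, edgeR adjusted p = 0.111). Without that library the adjusted p was 0.0144. MamBo43 exceeded MamBo89 by a log2 fold change of 2.96 (SE 0.75, edgeR adjusted p = 0.0195), and MamBo38 lay below MamBo89 by -7.81 (SE 0.90, edgeR adjusted p = 2.82e-05). From MamBo43 to MamBo43 TRT it was -3.25 (edgeR adjusted p = 0.0226), a call that was lost without the 60-day library (adjusted p = 0.105).

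Cldn4 (ENSMUSG00000047501, chr5:134945119-134946934, minus strand), a close relative of Cldn3, was low in nearly every library. It was at 29.6 CPM in AG3 and at 2.26, 1.05 and 2.26 CPM in the other MamBo89 libraries, at 3.62 CPM in MamBo43, at 0.687 and 0.841 CPM in MamBo43 TRT, and at 0 to 0.0750 CPM in MamBo38. AG3 set the mean of MamBo89, which was 8.80 ± 13.9 CPM (SD, n = 4) with it and 1.86 ± 0.698 CPM (SD, n = 3) without it. The groups by HER2 status did not overlap, at a log2 fold change of -4.70 (SE 1.19, edgeR adjusted p = 0.00664), which was -2.93 without AG3 (adjusted p = 0.0229). The difference between MamBo43 TRT and MamBo43 was not called (log2 fold change -2.22, SE 1.56, edgeR adjusted p = 0.306). It was called when AG3 was left out of the fit (adjusted p = 0.0113).

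Cldn10 (ENSMUSG00000022132, chr14:118787908-118875489, plus strand), which forms ion channels in the kidney and in secretory glands, was high in MamBo43. It was at 271 CPM in untreated MamBo43, at 6.87 CPM in the withdrawal library and at 3.44 CPM in the 60-day library of MamBo43 TRT. In MamBo89 and in MamBo38 it did not exceed 2 counts in any library. The fold of MamBo43 over MamBo89 rested on 2 counts and was 10515 (95% exact Poisson interval 2911 to 86829). MamBo38 was itself derived from MamBo43, and the fold of MamBo43 over MamBo38 was 4452 (interval 1908 to 13711). The fall from MamBo43 to MamBo43 TRT, at a log2 fold change of -5.72 (SE 0.51, edgeR adjusted p = 7.8e-05), was the largest among the members in that comparison.

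Cldn1 (ENSMUSG00000022512, chr16:26356642-26371841, minus strand), the claudin of the epidermal barrier, was the member that rose with the loss of HER2. It was at 1.55, 1.57, 1.34 and 0.386 CPM in MamBo89 (AG3, parental, withdrawal and 60 days), and at 0.550 CPM, or 14 counts, in MamBo43. It was at 3.73 and 7.38 CPM in the withdrawal and 60-day libraries of MamBo43 TRT and at 6.17, 11.8, 7.16 and 9.30 CPM in MamBo38. Each of the 6 HER2-negative libraries had more of it than any of the 5 HER2-positive ones (log2 fold change 2.81, SE 0.45, edgeR adjusted p = 0.000385). Against MamBo43 the fold was 10.5 in MamBo43 TRT (95% exact Poisson interval 6.26 to 19.2) and 15.6 in MamBo38 (interval 9.33 to 28.6). MamBo43 TRT and MamBo38 overlapped and did not differ by the test (log2 fold change -0.63, SE 0.50, edgeR adjusted p = 0.372). Even at its highest, Cldn1 remained a gene of few transcripts, as the levels per length show.

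Divided by the length of their exons, the 5 member claudins can be compared with each other. Their summed level was 136 to 166 CPM per kilobase in MamBo89, 420 in MamBo43, 70.5 and 18.8 in the withdrawal and 60-day libraries of MamBo43 TRT, and 1.38 to 2.64 in MamBo38. Cldn3 made up 71 to 95.3% of the sum in MamBo89. In MamBo43 it made up 44.4%, beside 30.2% for Cldn7 and 24.9% for Cldn10. In MamBo43 TRT, Cldn3 was again the main one at 57.4 to 63.4%, and Cldn10 was down to 3.76 to 7.08%. In MamBo38, Cldn1 made up 87.6 to 94.6% of a small sum, at 1.78 ± 0.514 CPM per kilobase (SD, n = 4) against 135 ± 16 CPM per kilobase for Cldn3 in MamBo89.

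**Figure D2:**
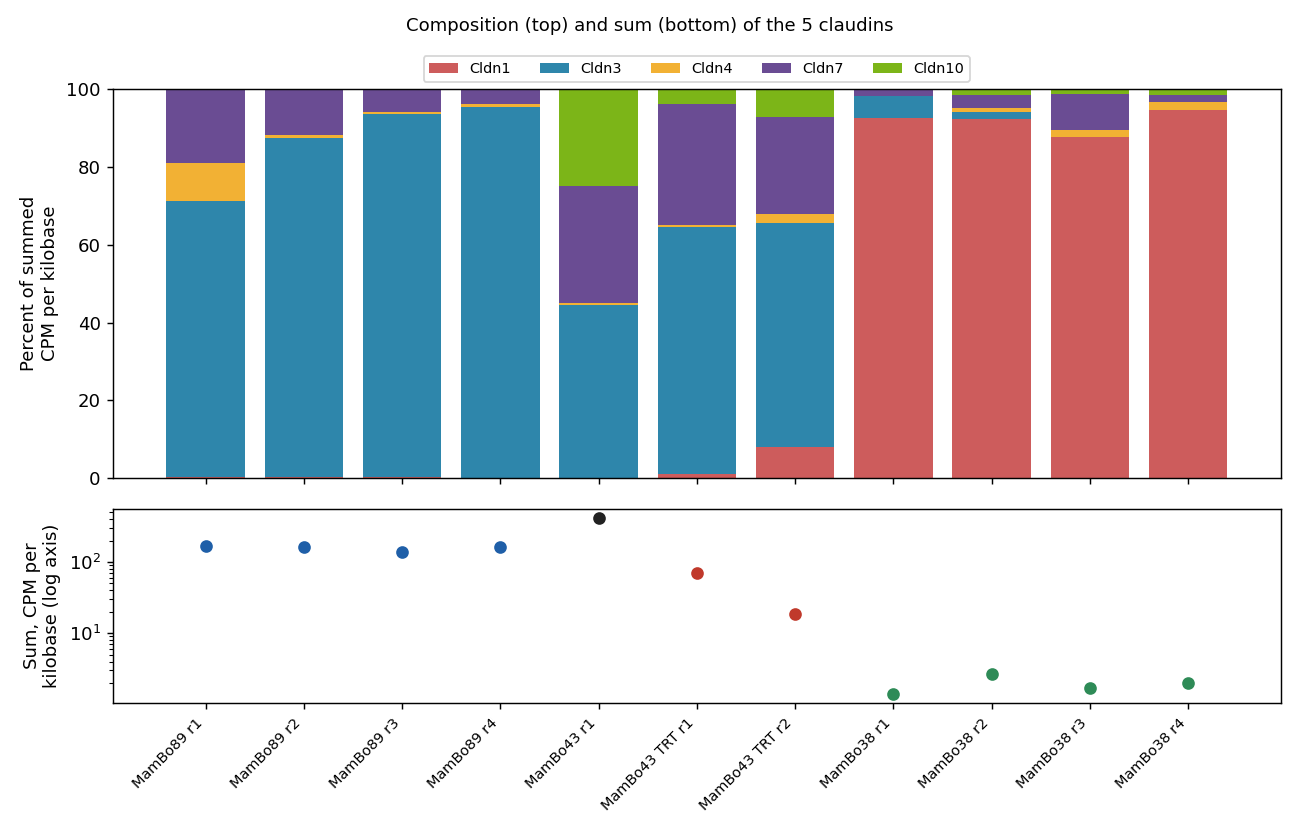
Share of each of the 5 member claudins in their summed CPM per kilobase of exon, in percent, and below it the sum on a log axis, for each of the 11 libraries (r1 to r4, replicate numbers). MamBo89 was mainly Cldn3, MamBo43 was split between Cldn3, Cldn7 and Cldn10, and MamBo38 was mainly Cldn1 at a sum of 1.38 to 2.64.

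Occludin and the proteins of tricellular contacts followed Cldn3. Ocln (ENSMUSG00000021638, chr13:100496507-100552718, minus strand) was at 67.1 CPM in AG3, at 29.5, 26.9 and 22.4 CPM in the parental, withdrawal and 60-day libraries of MamBo89, and at 70.9 CPM in MamBo43. It was at 13.5 and 2.07 CPM in the withdrawal and 60-day libraries of MamBo43 TRT, and no read was counted in any MamBo38 library. Set against the floor of 3 counts per library, Ocln was at least 247-fold higher in MamBo89 and at least 470-fold higher in MamBo43 than in MamBo38. Its log2 fold change was -4.06 (SE 1.49, edgeR adjusted p = 0.0394) by HER2 status and -3.19 (SE 0.97, edgeR adjusted p = 0.0433) from MamBo43 to MamBo43 TRT. Without the withdrawal library of MamBo43 TRT these values were -6.58 and -5.12 (adjusted p = 0.0021 and 0.0102).

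Marveld2 (ENSMUSG00000021636, chr13:100595957-100616971, minus strand), tricellulin, was at 81.2, 44.4, 35.9 and 34.3 CPM in MamBo89 (AG3, parental, withdrawal and 60 days) and at 45.5 CPM in MamBo43. It was at 9.23 and 1.64 CPM in the withdrawal and 60-day libraries of MamBo43 TRT and at 0 to 0.168 CPM in MamBo38, and the groups by HER2 status did not overlap (log2 fold change -4.69, SE 1.24, edgeR adjusted p = 0.00843). From MamBo43 to MamBo43 TRT its log2 value changed by -3.07 (edgeR adjusted p = 0.0138), and by -4.81 without the withdrawal library (adjusted p = 0.00224). MamBo89 exceeded MamBo38 by a fold of 586 (95% exact Poisson interval 284 to 1457). Lsr (ENSMUSG00000001247, chr7:30957770-30973464, minus strand), which recruits tricellulin, was at 167, 203, 160 and 229 CPM in MamBo89 and at 199 CPM in MamBo43. It was at 41.6 and 12.0 CPM in MamBo43 TRT, and 1 count was found over the 4 MamBo38 libraries. The log2 fold change of Lsr was -4.42 by HER2 status (SE 1.57, edgeR adjusted p = 0.034) and -2.89 from MamBo43 to MamBo43 TRT (SE 0.52, edgeR adjusted p = 0.00283). The level of Lsr is uncertain, because 25.9% of its windows of 75 bases, the read length, also occur in Gm4673 on the opposite strand, a gene without a row in the count table, and the library kit kept no strand.

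The adhesion protein F11r and the scaffold Tjp1 were measured well above the floor in every library. F11r (ENSMUSG00000038235, chr1:171437535-171464603, plus strand) was at 330, 303, 277 and 299 CPM in MamBo89, at 231 CPM in MamBo43, and at 97.1 and 41.7 CPM in the withdrawal and 60-day libraries of MamBo43 TRT. In MamBo38 it was at 15.4, 27.7, 15.6 and 14.0 CPM, less than in any other group. MamBo89 exceeded MamBo38 by a fold of 16.6 in mean CPM, and the log2 fold change by HER2 status was -3.03 (SE 0.50, edgeR adjusted p = 0.00049). Tjp1 (ENSMUSG00000030516, chr7:65296165-65527781, minus strand) was at 273, 153, 151 and 131 CPM in MamBo89, 193 in MamBo43, 158 and 123 in MamBo43 TRT and 92.0, 104, 88.6 and 103 in MamBo38. Its groups by HER2 status overlapped, and its log2 fold change of -0.69 (SE 0.21, edgeR adjusted p = 0.0173) missed the minimum of 1. Per kilobase of exon, Tjp1 was the highest of the members in MamBo38 (12.4 ± 0.997 CPM per kilobase, SD, n = 4), followed by F11r (6.82 ± 2.41) and Cldn1. In MamBo89 the order began with Cldn3, F11r (113 ± 8.12) and Lsr (87.4 ± 14.8), with Tjp1 at 22.7 ± 8.33, and Tjp1, Cldn7 (16.3 ± 11.7) and Marveld2 (14.5 ± 6.49) lay within each other's spread.

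Set line against line in a fit of 4 groups, the members separated the lines as follows. In MamBo38 against MamBo89 (n = 4 each), 7 of the 10 members were lower and 1, Cldn1, was higher, against 22% lower and 19.9% higher among the 13782 genes tested. The median log2 fold change was -7.57 over the members and -0.07 over all genes. The call for Cldn4 was lost without the 3 MamBo38 libraries whose names carry another code than all other libraries. That fit leaves 1 MamBo38 library, so it cannot show an effect of the code. Tjp1 had a log2 fold change of -0.86 (SE 0.22, edgeR adjusted p = 0.00537) with no overlap of libraries, under the minimum of 1, and Cldn10 was at or near 0 in both lines. Between MamBo43 (n = 1) and MamBo89 (n = 4), few members were called. Of the 10, Cldn7 and Cldn10 were called, both higher, against 11% of all genes called higher and 7.86% lower, and the median log2 fold change was 0.10. The estimates for Lsr (0.07, SE 0.49), Tjp1 (0.12, SE 0.34) and Marveld2 (-0.11, SE 0.72) were near 0. Because MamBo43 had 1 library, these tests assume that it varies as the other groups do.

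From MamBo43 to MamBo43 TRT (n = 1 and 2), 7 of the 10 members were lower and Cldn1 was higher, while 15.5% of all genes were called lower and 13.6% higher. The median log2 fold change was -2.82 over the members and 0 over all genes. The members not called were Cldn4 and Tjp1 (log2 fold change -0.46, SE 0.37, edgeR adjusted p = 0.377). MamBo43 TRT kept more of these transcripts than MamBo38. Of the 10 members, 8 were called in MamBo43 TRT against MamBo38 (n = 2 and 4), all of them higher, against 10.2% of all genes called higher and 10.2% called lower. The fold of MamBo43 TRT over MamBo38 was 883 for Cldn3 (95% exact Poisson interval 302 to 4284), 178 for Cldn7 (interval 99.6 to 357), 58.2 for Marveld2 (interval 28.3 to 145) and at least 47-fold for Ocln. The call for Cldn4 stood at the threshold (edgeR adjusted p = 0.0999). It was lost in 10 of its 17 alternatives, among them leaving out any 1 library of MamBo38 or MamBo43 TRT. Without the same 3 MamBo38 libraries, which leaves 1 of that line, it was lost, as was the call for F11r (log2 fold change 1.93, edgeR adjusted p = 0.00176 with all libraries). Without the withdrawal library of MamBo43 TRT the value of F11r was 1.22 (adjusted p = 0.0274). These comparisons share their libraries with each other, so that they are not independent.

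**Figure D3:**
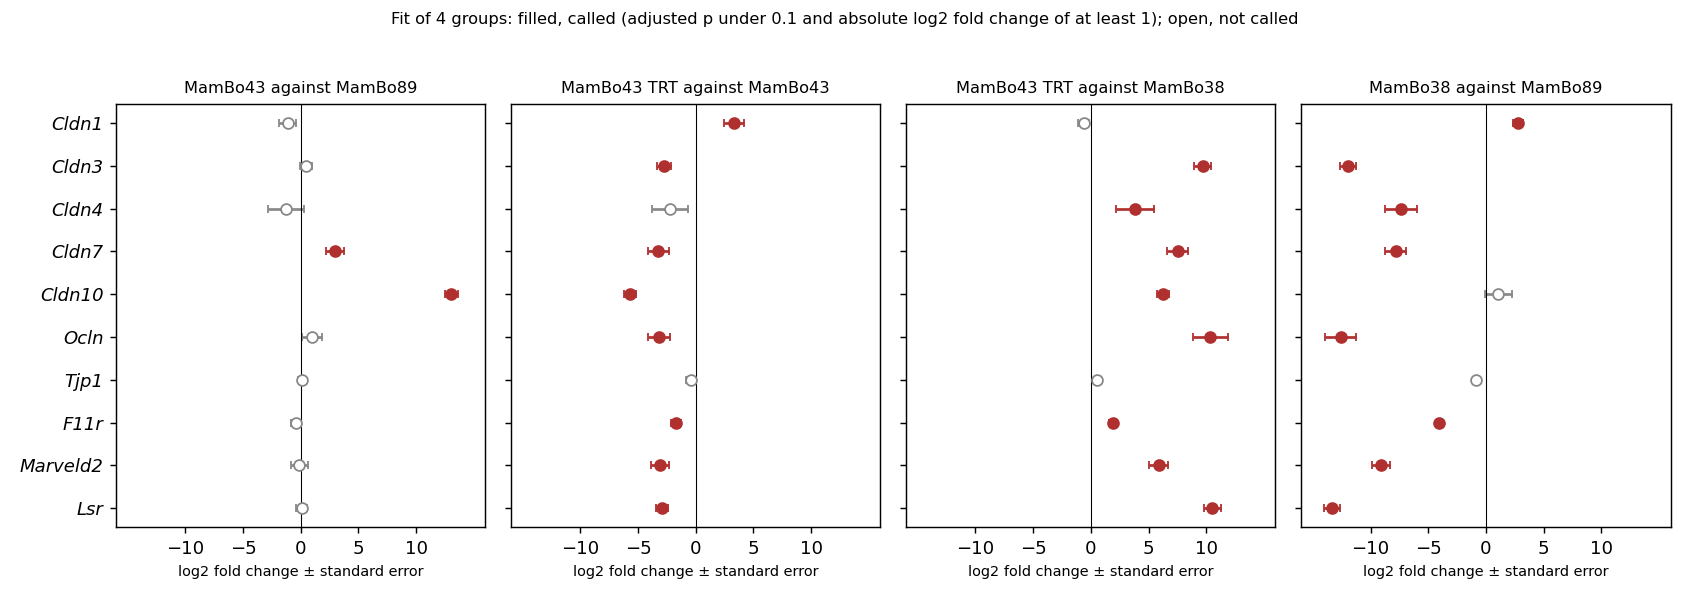
Log2 fold change (point) and its standard error (bar) of each member in 4 comparisons between lines, from edgeR's fit of 4 groups. Filled points were called, as 2, 8, 8 and 8 members did from left to right, and values over 6 in size involve a group with counts near 0 and depend on the prior count.

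The 2 schedules left different amounts of each transcript in MamBo43 TRT, as a description of 2 libraries without replicates. Relative to untreated MamBo43, Cldn3 was at 24.0% in the withdrawal library and at 5.79% in the 60-day library. Cldn7 was at 17.3 and 3.68%, Ocln at 19.1 and 2.91%, Marveld2 at 20.3 and 3.62%, and Lsr at 20.9 and 6.04%. The withdrawal library thus exceeded the 60-day library for these genes, by 3.45-fold for Lsr to 6.56-fold for Ocln. F11r was at 42.0 and 18.1% and Tjp1 at 81.6 and 63.7%, the largest share in both libraries among the members below the untreated level. Cldn10 was at 2.53 and 1.27%. Cldn4, at 19.0 and 23.3%, did not follow the order, and its values rested on 14 and 22 counts. Cldn1 was at 678 and 1340% of the untreated level, so that the 60-day library, with less of Cldn3, Cldn7 and Cldn10, had more of it. The epithelial adhesion genes Cdh1 (25.9 and 9.24%) and Epcam (25.0 and 4.83%), which are not members, showed the same order. In the same 2 libraries the epithelial markers summed to 1750 and 276 CPM, and their part in the difference was not tested.

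**Figure D4:**
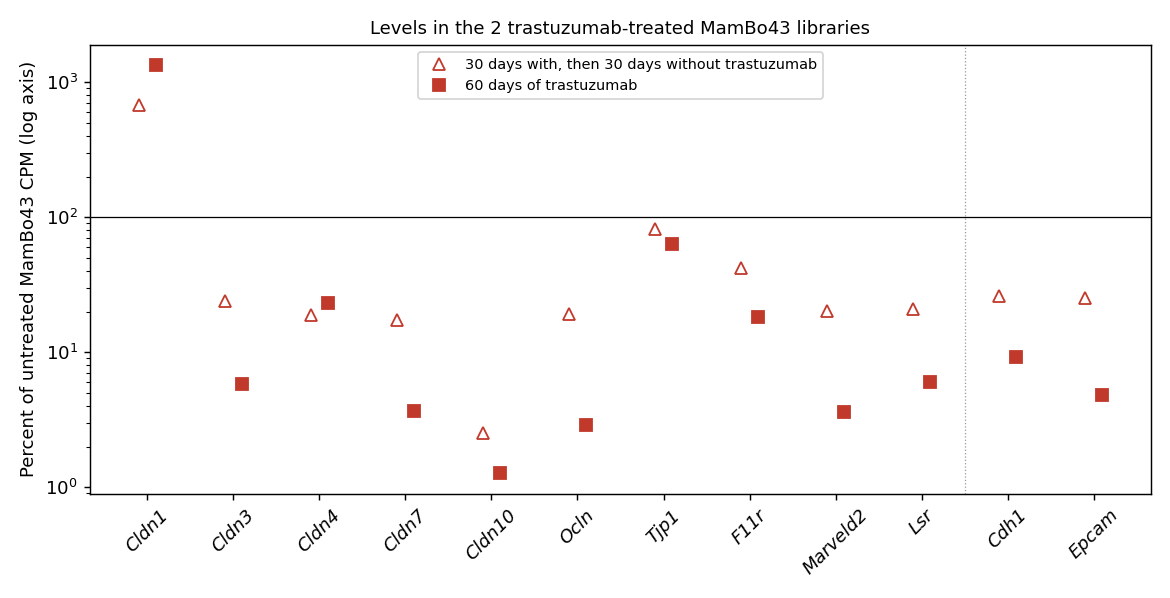
Level of each member, and of the epithelial genes Cdh1 and Epcam to the right of the dotted line, in the withdrawal library (open triangle) and the 60-day library (filled square) of MamBo43 TRT, in percent of the untreated MamBo43 library (line at 100) on a log axis. All members except Cldn1 lay below 100%, Tjp1 kept 63.7 to 81.6%, and Cldn10 kept 1.27 to 2.53%.

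In MamBo89 and in MamBo38, edgeR called no gene at all after trastuzumab, and so no member. In MamBo89 (2 treated and 2 untreated libraries), 0 of 10 members passed edgeR's test, as did 0% of the 13782 genes called higher and 0% called lower. At an unadjusted p under 0.05 there were 2 members, Cldn4 (log2 fold change -3.27, SE 1.02) and Cldn7 (-1.82, SE 0.63), both with an edgeR adjusted p of 0.721, and DESeq2 called 0 members. One of the untreated libraries was AG3, and without the parental library both genes were called (adjusted p = 0.00527 and 0.0702). In MamBo38, 0 of 10 members passed edgeR's test, with 0 at an unadjusted p under 0.05 and 0 by DESeq2, against 0% of all genes called in either direction. The difference between lines in the effect of trastuzumab was tested as an interaction. It was called for 4 of the 10 members between MamBo43 and MamBo89, against 11.1% of all genes called higher and 11.2% lower. The effect was more positive in MamBo43 for Cldn1 (difference of log2 fold changes 4.19, SE 1.05, edgeR adjusted p = 0.033) and more negative for Cldn3 (-2.85, SE 0.82, edgeR adjusted p = 0.056), Lsr (-2.96, SE 0.78, edgeR adjusted p = 0.043) and F11r (-1.59, SE 0.59, edgeR adjusted p = 0.0987). Without the withdrawal library of MamBo43 TRT 7 members were called, and without the 60-day library of MamBo89 1 was. Cldn10 did not exceed 2 counts in any MamBo38 library, so that an effect of trastuzumab on it could not be measured in that line. Between MamBo43 and MamBo38 the interaction was called for Cldn1 (3.45, SE 0.995, edgeR adjusted p = 0.0544) and Cldn10 (-6.09, SE 1.87, edgeR adjusted p = 0.072), against 11% of all genes called higher and 8.63% lower. Leaving out 1 library moved that count to 0 (without either treated MamBo38 library), to 1 (without either untreated MamBo38 library or the 60-day library of MamBo43 TRT) or to 4 (without the withdrawal library of MamBo43 TRT), and the value of Cldn10 was -9.40 without the second untreated MamBo38 library.

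Of the 20 other claudin genes in the table, 13 never exceeded 3 counts. These include 7 with no count in any library, among them Cldn5, the claudin of endothelial cells. Between HER2-negative and HER2-positive libraries, 4 were tested and 2 were lower, against 17% of all genes, with a median log2 fold change of -2.71 over the 4. Cldn23 was at 4.80 to 5.57 CPM in MamBo89 and 3.62 CPM in MamBo43, and at 0 to 0.239 CPM in every HER2-negative library (log2 fold change -5.68, SE 0.59, edgeR adjusted p = 2.45e-05). It was at the floor in both MamBo43 TRT libraries, at 0.147 and 0.0765 CPM, or 3 and 2 counts. Cldn2, a claudin that forms channels for cations, was at 31.9, 17.3, 12.2 and 4.96 CPM in MamBo89, 16.5 in MamBo43, 3.34 and 0.421 in MamBo43 TRT and 0 to 0.0558 in MamBo38 (log2 fold change -4.68, SE 1.26, edgeR adjusted p = 0.00907). Cldn8 and Cldn12 were named after their values were seen. The first was at 16.5 CPM in MamBo43 and at no more than 0.728 CPM elsewhere, high in the same line as Cldn10. Cldn12 lay between 28.5 and 69.2 CPM in all 11 libraries (log2 fold change -0.14, SE 0.21, edgeR adjusted p = 0.615), and at 9.91 ± 1.47 CPM per kilobase (SD, n = 4) in MamBo38 it exceeded Cldn1 per length in that line.

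Of 26 other genes for proteins of the junction and of the polarity complexes beside it, 23 were tested by HER2 status. Of these, 9 were lower and 1 was higher, against 17% and 15.8% of all genes. The median log2 fold change of the 23 was -0.90. The largest falls were those of Ildr1 (-4.58, SE 1.41), a relative of Lsr, Marveld3 (-4.42, SE 1.32), a relative of Ocln, the scaffold Tjp3 (-4.09, SE 1.20) and Patj (-3.44, SE 1.14), a scaffold of the Crumbs complex, at edgeR adjusted p of 0.0177, 0.0157, 0.0141 and 0.0248. Ildr1 was at 72.8 to 79.9 CPM in MamBo89 and 102 CPM in MamBo43, at 15.02 and 5.32 CPM in MamBo43 TRT and at 0 to 0.0482 CPM in MamBo38. Like Lsr, it stood between the lines in MamBo43 TRT. Ybx3, a transcription factor that binds Tjp1 at the junction, was the gene that rose, from 346 ± 79 CPM (SD, n = 5) to 757 ± 352 CPM (SD, n = 6), at a log2 fold change of 1.13 (SE 0.30, edgeR adjusted p = 0.00872). Its mean was 1202 CPM in MamBo43 TRT and 535 CPM in MamBo38. The difference of MamBo38 from MamBo89 missed the minimum of 1 (log2 fold change 0.57, SE 0.17, edgeR adjusted p = 0.0136). In MamBo38 against MamBo89, 24 were tested, with 12 lower and 2 higher (Jam2 and Esam), against 22% and 19.9% of all genes. Esam did not exceed 12 counts in any MamBo38 library, and its libraries overlapped between the lines. From MamBo43 to MamBo43 TRT 10 were lower and 1 was higher, against 15.5% and 13.6% of all genes. In MamBo43 TRT against MamBo38 11 were higher and 1 was lower, against 10.2% of all genes in each direction. The polarity gene Pard3 (log2 fold change 0.13, SE 0.12) and the scaffold gene Mpdz (0.21, SE 0.27), named after their values were seen, were not called by HER2 status.

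**Figure D5:**
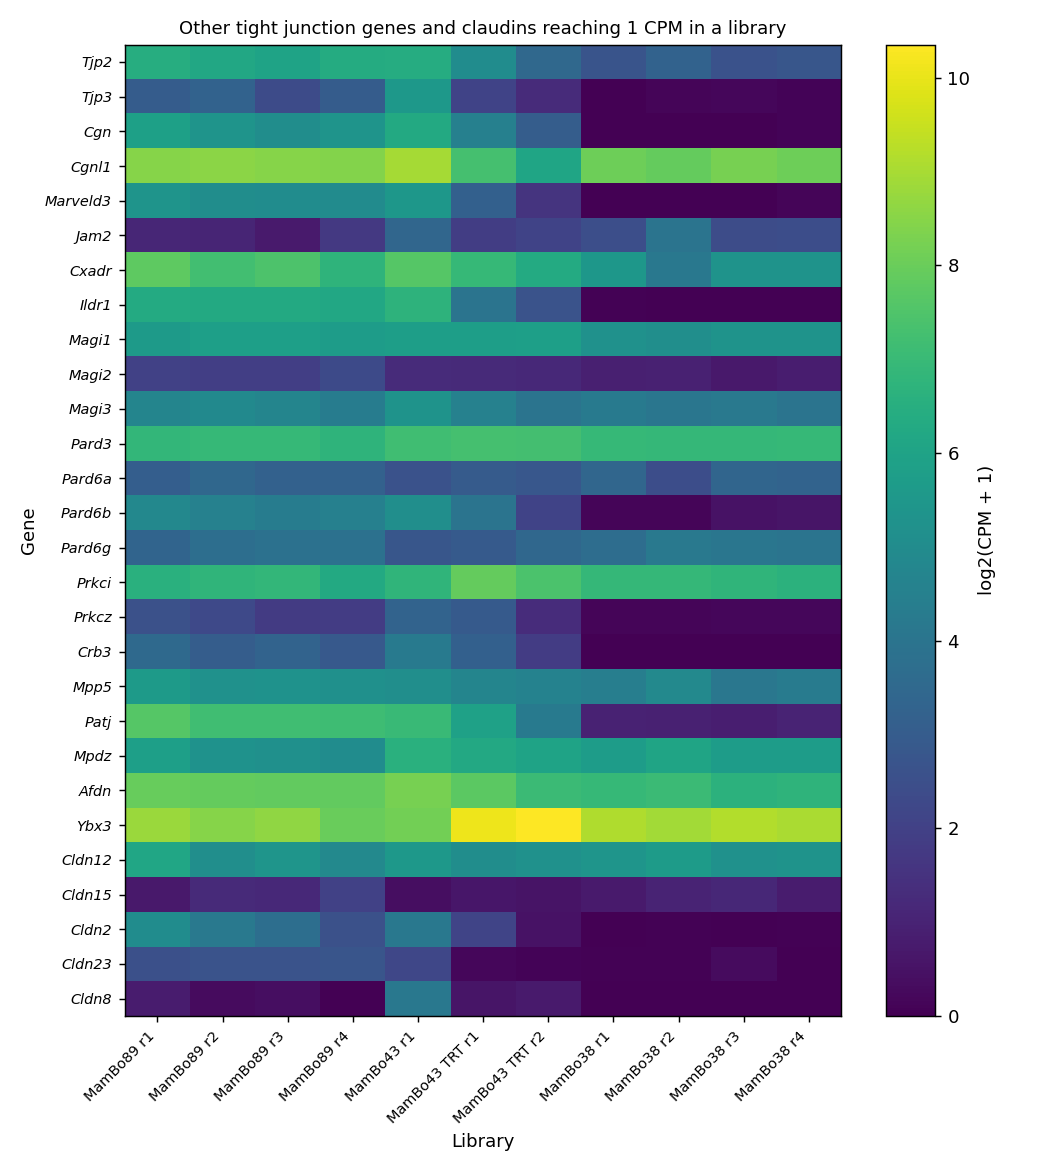
Level as log2(CPM + 1), by colour, of the 28 other junction genes and claudins that reached 1 CPM in any library (rows), in each of the 11 libraries (columns, r1 to r4 as replicate numbers). Ildr1, Marveld3, Cgn, Crb3 and Tjp3 were dark in all MamBo38 libraries and between in MamBo43 TRT, while Pard3, Magi1 and Cldn12 kept a like colour across libraries.

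The members also varied together across libraries, given here as a description over 11 libraries that fall into 4 groups. Pearson's r of log2(CPM + 1) was 0.999 between Cldn3 and Lsr and 0.988 between Ocln and Marveld2. Against the mean of the other 9 members, r was 0.938 to 0.987 for Cldn3, Cldn7, F11r, Lsr, Marveld2 and Ocln, 0.894 for Tjp1, 0.738 for Cldn4, 0.366 for Cldn10 and -0.899 for Cldn1. Among 10382 genes of at least 5 CPM on average that were neither members nor on the other lists, those most like the mean of the 10 members were Tmem125 (r = 0.9951), 2310030G06Rik (0.995), Eps8l1 (0.9943), Atp1b1 (0.9942) and Mpzl2 (0.994). Atp1b1, a subunit of the sodium pump, was at 126 to 457 CPM in MamBo89, 679 CPM in MamBo43, 87.2 and 23.8 CPM in MamBo43 TRT and 2.23 to 3.18 CPM in MamBo38. Mpzl2, an adhesion protein of epithelia, was at 35.7 to 73.1, 98.5, 20.8 and 8.72, and 0 to 0.112 CPM in the same order.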

How the data were processed

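Total RNA of cell pellets was made into libraries with a TruSeq kit that keeps no strand and, per the methods, read over 75 nucleotides in single-end mode. Per the submitters' processing notes, the authors used bcl2fastq, STAR 2.5, RSEM 1.3.0 and the build mm10. The deposited table holds expected counts per mouse gene for 11 libraries, not normalized and without a fraction in any value. The annotation was not given in the sources used here.

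From these counts, edgeR 4.0.16 in R 4.3.3 was used with TMM scaling, filterByExpr (minimum count 10, minimum total 15), glmQLFit and glmQLFTest. HER2-negative (n = 6) was compared with HER2-positive (n = 5) in a fit of 2 groups, the lines in a fit of 4 groups, and trastuzumab effects and interactions in a fit of 6 groups of line and treatment. P-values were adjusted by the Benjamini-Hochberg method over all genes tested, with thresholds of 0.1 for the adjusted p and 1 for the size of the log2 fold change. MamBo43, with 1 library, takes its spread from the other groups. HER2 status and the clone come from the labels and the methods. CPM use TMM-scaled sizes of all 11 libraries, and CPM per kilobase divide by the union of exons in GENCODE M21 (GRCm38), which also gave the positions. Exact Poisson intervals are at 95%. Fits were tested on simulated counts. Total counts of 17040454 to 27127662 leave small counting errors for all but genes near the floor of 3 counts, so that the number of libraries limits the precision.

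All 10 members are described. Of other claudins and junction genes, the text names up to 4 called genes of each list and direction with the largest absolute log2 fold change by HER2 status, plus the 5 genes most correlated with the members. The members and lists were chosen with earlier results of these data known. Alternatives were DESeq2 1.42.0, RLE size factors, no filter, an adjusted p under 0.05, CPM over total counts, the tumor as a covariate, subsets of libraries, and leaving out each library.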

Additional observations from a re-analysis of the deposited data

Results flagged for a closer look

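Samples far from the rest of their group were looked for with Dixon's test at 95% in 40 groups of 4 to 6 libraries, and 16 were found. The chance rate of about 1 in 20 assumes that each group is uniform. The HER2-negative and HER2-positive groups mix lines that differ, so the 16 cannot be set against that rate. Several of them came from the same library, so that they are not independent.

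Among the MamBo89 libraries, AG3 stood apart for Cldn4 at 29.6 CPM (next 2.26), Ocln at 67.1 CPM (next 29.5) and Tjp1 at 273 CPM (next 153). Among all HER2-positive libraries it was high for Cldn4 (29.6 CPM, next 3.62) and Marveld2 (81.2 CPM, next 45.5). Untreated MamBo43 stood above the other HER2-positive libraries for Cldn7 at 247 CPM (next 61.5) and Cldn10 at 271 CPM (next 0.0922).

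Among the HER2-negative libraries, the withdrawal library of MamBo43 TRT stood above the rest for Cldn3 at 56.3 CPM (next 13.6), Cldn7 at 42.8 CPM (next 9.10), Ocln at 13.5 CPM (next 2.07), F11r at 97.1 CPM (next 41.7), Marveld2 at 9.23 CPM (next 1.64) and Lsr at 41.6 CPM (next 12.0). In each case the next library was the 60-day library of MamBo43 TRT. One untreated MamBo38 library was high for F11r at 27.7 CPM (next 15.6), and this library alone of its line carries the code of the other lines in its name. For Cldn10 in MamBo89 (0.0922 CPM in the parental library) and Lsr in MamBo38 (0.0558 CPM in the untreated MamBo38 library just named for F11r), the distance was that of 2 counts and 1 count from 0.

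The effect of trastuzumab differed between MamBo43 and MamBo89 by the interaction test for Cldn1 (difference of log2 fold changes 4.19), Lsr (-2.96), Cldn3 (-2.85) and F11r (-1.59). Between MamBo43 and MamBo38 the interaction was called for Cldn1 (3.45) and Cldn10 (-6.09). Cldn10 did not exceed 2 counts in any MamBo38 library, so its value reflects the fall in MamBo43 and no measured effect in MamBo38. The call for F11r was lost in 8 of its 14 alternatives, among them leaving out any 1 of the MamBo89 libraries, with adjusted p up to 0.214. Those for Cldn3 and Lsr were lost without the 60-day library of MamBo89 (adjusted p = 0.152 and 0.131), and that for Cldn1 against MamBo38 was lost without 4 of the libraries in turn. Cldn10 lost its call without either treated MamBo38 library or the first untreated one. All of these rest on the single untreated MamBo43 library, and the cause of the differences was not tested.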

How the results depend on the processing

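No member's log2 fold change that was called reversed its sign under any alternative. Over all values, 1327 alternative values kept their call or stayed within the spread, while 37 lost a call and 14 gained one. By HER2 status, DESeq2 gave an adjusted p to 5 members and called 4 of them, Cldn1, Cldn4, Ocln and Cldn7. Of these, Cldn7 (DESeq2 adjusted p = 0.0611) was not called by edgeR. DESeq2 gave no adjusted p to Cldn3, F11r, Marveld2 and Lsr, which edgeR had called. At an adjusted p under 0.05, 2 members were called in the interaction of MamBo43 with MamBo89 and 0 in that with MamBo38. Leaving out each library gave 7 to 8 members called by HER2 status, 8 to 8 in MamBo38 against MamBo89, 7 to 9 in MamBo43 TRT against MamBo43, 2 to 2 in MamBo43 against MamBo89, 7 to 8 in MamBo43 TRT against MamBo38, 0 to 2 for trastuzumab in MamBo89, 0 to 0 for it in MamBo38, 1 to 7 for the interaction with MamBo89 and 0 to 4 for that with MamBo38. Cldn4 in MamBo43 TRT against MamBo38 also lost its call with RLE size factors (adjusted p = 0.102) and without the filter (0.101). RLE size factors moved the median of all genes by at most 0.039 on the log2 scale.

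Some counts over all genes moved by over 1.5 times. At an adjusted p under 0.05 they were 1991 (from 3062) and 1753 (from 2699) for the interactions with MamBo89 and MamBo38. DESeq2 called 29 and 1 genes for trastuzumab in MamBo89 and MamBo38 (edgeR 0 and 0, with 724 and 230 at an unadjusted p under 0.05). MamBo43 against MamBo89 gave 2604 genes, 1697 from the libraries of both groups alone and 952 from untreated libraries alone. Without the parental MamBo89 library, trastuzumab in MamBo89 gave 2148 genes. The interaction with MamBo89 fell to 1606 genes without the 60-day MamBo89 library and 1664 without the 60-day MamBo43 TRT library. That with MamBo38 fell to 1355 and 1190 without the withdrawal and 60-day MamBo38 libraries and to 1495 without the 60-day MamBo43 TRT library. The labels carry no replicate numbers to use as a block, and a fit blocked on the treatment schedule was not run. For Cldn3, Lsr, Ocln and Cldn10 in the lines where they were near 0, depth limits the size of the fold. The causes of these changes were not tested.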
